A study of Mus musculus with 12 samples.

Results

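A set of 10 signalling genes of the mouse spinal cord, out of 12394 genes that the array names by a probe set with 1 symbol, was followed after injury at the level of total RNA and of polysome-bound RNA: the ligand genes Tgfb1, Tgfb2 and Bmp4, the ligand activator Thbs1, the receptor gene Tgfbr2, the inhibitory Smad gene Smad7, and the 4 inhibitor of DNA binding genes Id1, Id2, Id3 and Id4. They were taken as every probe set whose only gene symbol in the array annotation was one of these 10. That gave 19 probe sets of the 20393 that name 1 gene, on an array of 22690. Tgfb2, Tgfbr2, Id2 and Id4 had 3 probe sets each, Thbs1 had 2, and Tgfb1, Smad7, Bmp4, Id1 and Id3 had 1 each. A filter on dim values kept 18, and the probe set left out, 1422019_at of Tgfbr2, is described with the others.

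The cords came from wild-type female C57BL/6 mice 10 weeks old. Injured mice had 80% of the cord transected, and sham mice had the vertebral arch opened with the cord left whole. At 9 h after the operation, 2.5 cm of cord around the site was homogenised, and the homogenate gave both total RNA and the RNA bound to polysomes, the strings of ribosomes that translate an mRNA, which was collected from a sucrose gradient. The 4 groups, with 3 arrays each, were polysome-bound RNA of injured cord, polysome-bound RNA of sham cord, total RNA of injured cord and total RNA of sham cord. The sample titles name the sham mice naive. The same operation, age, sex and strain applied to both fractions, and labelling began from 3 µg of polysome-bound RNA and 5 µg of total RNA. No transgene or Cre line was used, and the labels do not say whether arrays with equal numbers came from 1 animal, so p-values measure the spread between these samples.

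TGF-beta ligands are secreted in a latent form and bind a pair of receptor kinases that phosphorylate Smad2 and Smad3, whereas BMP ligands act through Smad1, Smad5 and Smad8. Smad7 is induced by the pathway and shuts it off at the receptor. Thrombospondin-1, the product of Thbs1, can release TGF-beta from its latent complex. Id proteins lack a DNA-binding region and hold basic helix-loop-helix (bHLH) factors away from DNA; Id1, Id2 and Id3 are classic targets of BMP signalling. In the injured cord TGF-beta is known for its part in the glial and fibrous scar, and BMP and Id genes for steering neural precursors toward astrocytes.

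Values are log2 expression values as the authors deposited them. Array medians were 7.12 to 7.24 in polysome-bound RNA of injured cord, 7.24 to 7.26 in that of sham cord, 7.76 to 7.79 in total RNA of injured cord and 7.75 to 7.77 in that of sham cord, so levels in the 2 fractions do not share a common scale. In the same group order, the median of 18 hybridisation spikes, controls added to every sample, averaged 9.83, 10.15, 9.88 and 10.36. The spikes thus also read lower in injured than in sham cord within each fraction. Whether this enters the injury changes below was not tested. The 27 control probe sets for genes that mouse RNA lacks reached at most 6.40 to 6.49, 6.42 to 6.53, 6.81 to 6.89 and 7.03 to 7.04 on the arrays of those groups in that order, and a value under the highest of them is called not above the absent controls. The difference between the 3′ and 5′ probe sets of Gapdh, a sign of shortened RNA or labelling, averaged 2.83 ± 0.27 in polysome-bound RNA of injured cord and 0.87 ± 0.03 in that of sham cord, and 1.40 ± 0.22 in total RNA of injured cord and 0.23 ± 0.05 in that of sham cord (SD, n = 3 each). For Gapdh it moved with both operation and fraction, but the other controls did not all follow. In the same group order Actb averaged 3.26, 1.68, 1.80 and 1.46, and Pcx 2.47, 2.50, 2.45 and 2.16. Tfrc ran the other way, at 0.14, 0.18, 0.65 and 0.85. The part of this measure in the differences below was not tested. Among the arrays, injured replicate 1 and injured replicate 2 of the polysome-bound RNA received the lowest limma array weights, 0.22 and 0.41, against 0.87 to 2.01 for the other 10. All 8 neuron markers, all 7 astrocyte markers and all 5 oligodendrocyte markers tested lay above the absent controls on 12 of 12 arrays.

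Id2, Id3 and Tgfbr2 rose in total RNA whereas the brightest Id4 probe set gave no call, and their promoters are shown for the Smad motifs in them. RefSeq promoter windows (mouse assembly GRCm38.p6) were found for 7 of the 10 genes, and each sequence holds the 250 bases before the transcription start, 5′ to 3′ on the gene's strand, with motif matches in capitals.
Id2, chr12:25096093-25096342, minus strand: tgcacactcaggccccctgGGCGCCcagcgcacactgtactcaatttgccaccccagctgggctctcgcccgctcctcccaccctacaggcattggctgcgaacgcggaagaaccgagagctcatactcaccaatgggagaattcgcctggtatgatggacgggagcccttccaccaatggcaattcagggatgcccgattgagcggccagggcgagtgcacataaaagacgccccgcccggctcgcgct
Id3, chr4:136143572-136143821, plus strand: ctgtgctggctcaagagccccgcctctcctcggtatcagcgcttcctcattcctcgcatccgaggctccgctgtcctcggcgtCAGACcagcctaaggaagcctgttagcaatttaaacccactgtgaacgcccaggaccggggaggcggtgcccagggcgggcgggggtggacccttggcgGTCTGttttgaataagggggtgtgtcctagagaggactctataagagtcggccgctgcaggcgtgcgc
Id4, chr13:48260866-48261115, plus strand: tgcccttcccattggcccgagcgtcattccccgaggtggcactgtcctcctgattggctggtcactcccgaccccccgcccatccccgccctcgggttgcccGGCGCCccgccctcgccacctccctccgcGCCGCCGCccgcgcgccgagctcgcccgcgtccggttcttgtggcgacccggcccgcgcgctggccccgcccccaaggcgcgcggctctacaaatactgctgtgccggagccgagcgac
Tgfbr2, chr9:116175364-116175613, minus strand: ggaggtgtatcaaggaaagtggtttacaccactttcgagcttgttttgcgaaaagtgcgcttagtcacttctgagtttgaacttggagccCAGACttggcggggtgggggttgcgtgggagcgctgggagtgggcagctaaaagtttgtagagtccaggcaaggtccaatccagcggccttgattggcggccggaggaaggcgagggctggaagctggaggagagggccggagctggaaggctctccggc
The motifs, searched on both strands, were CAGAC, the short element bound by Smad3 and Smad4, its palindrome GTCTAGAC, and the GC-rich elements GGCGCC and GCCGNCGC associated with BMP Smads. GGCGCC lay 231 bases before the start of Id2 and 148 bases before that of Id4, which also held GCCGNCGC at 119 bases. CAGAC, read on either strand, lay 167 and 68 bases before the start of Id3, 160 before that of Tgfbr2, and 221 and 204 before that of Tgfb2. None of the 7 windows held GTCTAGAC, and those of Tgfb1 and Bmp4 held none of the 4 motifs. Among 32851 promoters of the same length, 42.2% held CAGAC, 0.167% GTCTAGAC, 9.59% GGCGCC and 6.89% GCCGNCGC. The matches are a description of these letters only. The Id4 window was 75.6% GC and those of Id2 and Id3 62.8%, against a median of 52.4% over all promoters.

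Thbs1, Tgfbr2, Id1, Id2 and Id3 rose with injury in total RNA. As deposited and with all arrays, none of these 5 genes had a probe set that was higher on polysomes past the threshold. Id1 was called higher there in 5 of 13 other settings, and Thbs1 lay near the floor on polysomes. In polysome-bound RNA 1 of the 18 member probe sets was higher in injured cord (5.6%, against 11.8% of all 16566 probe sets tested) and 4 were lower (22.2%, against 27.0%). In total RNA 7 were higher (38.9%, against 37.3% of all) and 3 were lower (16.7%, against 22.4%). The interaction, which is the polysome-bound change minus the total RNA change, was called for 1 probe set above 0 (5.6%, against 13.6%) and for 8 below 0 (44.4%, against 37.0%). In both directions together, 55.6% of the members were called in total RNA as deposited, against 59.8% of all. This depended on the scaling, since 83.3% were called after quantile normalization over 12 arrays, against 43.4% of all, and 83.3% within fractions, against 40.8%. No share is read as particular to these genes. The median change of the members was -0.11 in polysome-bound RNA, against -0.05 over all probe sets, and 0.10 in total RNA, against 0.08. For the interaction it was -0.24, against -0.14 over all. Calls are limma tests with a Benjamini-Hochberg adjusted p under 0.05. Over the whole array, 30.4% of the calls in polysome-bound RNA ran upward as deposited, 49.2% after quantile normalization of the 12 arrays and 52.0% after centring arrays on their median. In total RNA 62.5% ran upward, 50.9% after quantile normalization and 61.9% after centring. For the interaction those shares were 26.8%, 47.8% and 42.0%. The 3 injury contrasts share arrays, so their values for a gene are given side by side and are not independent of each other.

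**Figure D1:**
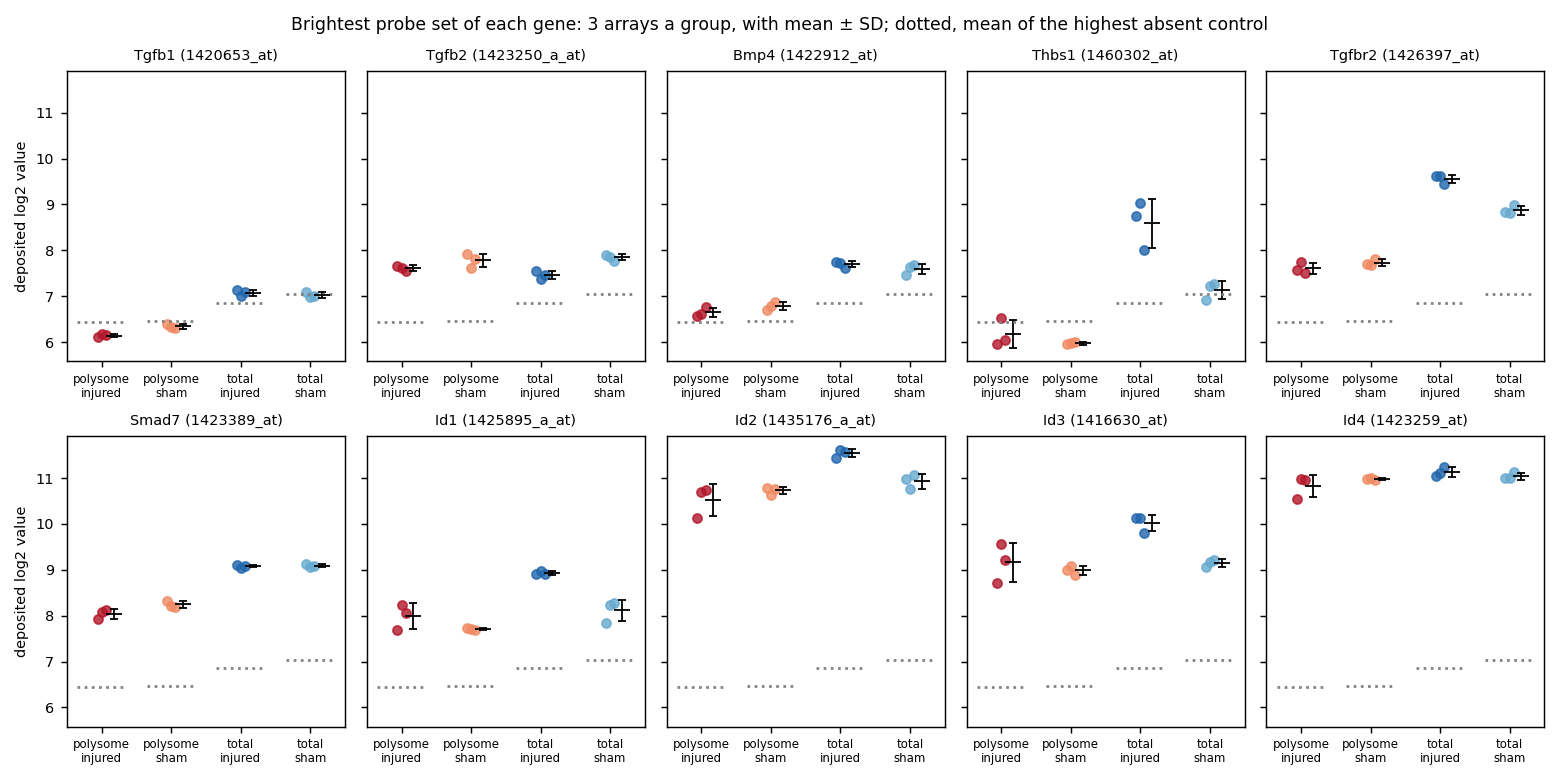
Deposited log2 value (y axis) of the brightest probe set of each of the 10 genes on every array, by group (x axis), with the mean ± SD of 3 arrays and a dotted line at the mean of the highest absent control. Thbs1, Tgfbr2, Id1, Id2 and Id3 stand higher in total RNA of injured cord than in that of sham cord without overlap, and Tgfb1 lies under the dotted line on all 6 polysome arrays.

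Thbs1 had the largest change of the 10 genes in total RNA as deposited. Probe set 1460302_at read 5.96, 6.53 and 6.04 in polysome-bound RNA of injured cord, against 5.95, 5.97 and 6.00 in that of sham cord. In total RNA it read 8.75, 9.03 and 8.01 in injured cord, against 6.91, 7.23 and 7.27 in sham cord. The total RNA groups did not overlap, and injured replicate 3 was the lowest of its group. In polysome-bound RNA only injured replicate 2 exceeded the absent controls, and the log2 change was 0.20 ± 0.20 SE (adjusted p = 0.46). Thbs1 was 2.75-fold higher in total RNA of injured cord (change 1.46 ± 0.20, adjusted p = 4.9e-05). The changes differed by -1.26 ± 0.28 (adjusted p = 0.0027), or -1.12 relative to the median of all probe sets. With 5 of the 6 polysome arrays not above the absent controls, this interaction sets a measured rise in total RNA against values near the floor of the array.

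The other Thbs1 probe set, 1450377_at, read 6.25, 6.32 and 6.09 in polysome-bound RNA of injured cord, against 6.17, 6.10 and 6.02 in that of sham cord. Its total RNA values were 7.94, 7.99 and 7.54 in injured cord, against 6.84, 7.01 and 6.98 in sham cord, where no array exceeded the absent controls. None of its 6 polysome arrays exceeded the absent controls. It was at least 1.73-fold higher in total RNA of injured cord (adjusted p = 9.8e-06), a bound taken against the dimmer group's value or the highest absent control, whichever was higher. The interaction was -0.76 ± 0.14 (adjusted p = 7.4e-04). Both Thbs1 probe sets rose in total RNA and neither was called on polysomes.

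Platelets, monocytes and endothelium are known to express Thbs1, and their markers were read on the same arrays. For comparison, 11.8% of all probe sets tested were higher and 27.0% lower on polysomes of injured cord. In total RNA 37.3% of all were higher and 22.4% lower. Of 7 monocyte and neutrophil probe sets, 4 were higher and 1 lower on polysomes of injured cord (median change 0.43), and 5 were higher and 1 lower in total RNA (median 1.37). Their mean level was 7.49 to 8.05 in polysome-bound RNA of injured cord and 7.42 to 7.55 in that of sham cord, and 8.77 to 9.28 in total RNA of injured cord and 7.95 to 8.20 in that of sham cord. Of 6 platelet probe sets, 0 were higher and 0 lower on polysomes (median change 0.03), and 2 were higher and 2 lower in total RNA (median -0.04). Pf4, a platelet chemokine, changed by 0.66 ± 0.26 on polysomes (adjusted p = 0.057) and by 1.14 ± 0.26 in total RNA (adjusted p = 0.0021). Ppbp, another, changed by 0.24 on polysomes (adjusted p = 0.12) and by 0.70 in total RNA (adjusted p = 2.0e-04). It exceeded the absent controls only on the total RNA arrays of injured cord. Pf4 and Ppbp were the 2 called higher, and the 2 called lower are not named. The platelet list held 5 genes on the array, and its mean level was 6.84 to 7.06 in polysome-bound RNA of injured cord and 6.77 to 6.86 in that of sham cord, and 7.36 to 7.59 in total RNA of injured cord and 7.24 to 7.28 in that of sham cord. Of 9 endothelial probe sets, 0 were higher and 2 lower on polysomes, and 3 were higher and 2 lower in total RNA. The part of these cells in the Thbs1 values was not tested, and in bulk RNA more cells of a type and more RNA per cell cannot be told apart.

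Tgfbr2, the type II receptor that binds TGF-beta and starts signalling, rose in total RNA by its brightest probe set. Probe set 1426397_at read 7.57, 7.74 and 7.51 in polysome-bound RNA of injured cord, against 7.70, 7.68 and 7.82 in that of sham cord. Total RNA values were 9.61, 9.62 and 9.45 in injured cord, against 8.83, 8.81 and 8.99 in sham cord. The total RNA groups did not overlap and the polysome groups did. On polysomes the change was -0.13 ± 0.08 (adjusted p = 0.22). Tgfbr2 was 1.61-fold higher in total RNA of injured cord (log2 change 0.68 ± 0.08, adjusted p = 9.9e-06), and the interaction was -0.81 ± 0.11 (adjusted p = 9.2e-05), or -0.67 relative to the median. All 12 arrays exceeded the absent controls for this probe set. Leaving out any of the 12 arrays kept the interaction between -0.88 and -0.76, and 13 other settings gave -0.85 to -0.50, with the smallest after quantile normalization within fractions. It was called under all of them.

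The dimmer Tgfbr2 probe sets did not follow it. Probe set 1425444_a_at read 6.38, 6.28 and 6.37 in polysome-bound RNA of injured cord, against 6.32, 6.26 and 6.41 in that of sham cord. The total RNA arrays gave 6.73, 6.85 and 6.85 in injured cord, against 7.05, 6.98 and 6.93 in sham cord. It was lower in total RNA by 0.18 on the log2 scale (change -0.18 ± 0.05, adjusted p = 0.013), with 0 of 6 polysome arrays and 1 of 3 arrays in each total RNA group above the absent controls. That call was lost without total sham replicate 1 (-0.15, adjusted p = 0.059), without total injured replicate 1 (-0.13, adjusted p = 0.070), and after quantile normalization over 12 arrays (-0.03, adjusted p = 0.63). Probe set 1422019_at, which the filter removed, lay at 5.55 to 5.85 in polysome-bound RNA of injured cord, 5.66 to 5.78 in that of sham cord, 5.89 to 6.03 in total RNA of injured cord and 5.98 to 6.08 in that of sham cord. No array put it above the absent controls, so only 1426397_at measured Tgfbr2 well above the floor.

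Smad7, the inhibitory Smad, fell slightly on polysomes and gave no call in total RNA. It read 7.92, 8.08 and 8.13 in polysome-bound RNA of injured cord, against 8.33, 8.22 and 8.19 in that of sham cord. In total RNA it read 9.10, 9.04 and 9.08 in injured cord, against 9.12, 9.06 and 9.08 in sham cord. The polysome groups did not overlap, and the total RNA groups did. The polysome change was -0.20 ± 0.07 (adjusted p = 0.025), and that in total RNA was -0.01 ± 0.07 (adjusted p = 0.86). The fall on polysomes was not called under any of 3 other scalings, where it was -0.09, -0.10 and -0.12 (adjusted p = 0.20, 0.18 and 0.11), nor without polysome injured replicate 1 (-0.14, adjusted p = 0.077) or polysome sham replicate 1 (-0.16, adjusted p = 0.12). In total RNA, quantile normalization over 12 arrays gave -0.24 (adjusted p = 0.0030) and within fractions -0.21 (adjusted p = 0.0085). The interaction was -0.19 ± 0.09 (adjusted p = 0.10).

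Among the ligands, Tgfb2, a TGF-beta made by neurons and glia as well as other cells, fell in total RNA by 1 of its 3 probe sets. Probe set 1423250_a_at read 7.66, 7.62 and 7.54 in polysome-bound RNA of injured cord, against 7.92, 7.62 and 7.81 in that of sham cord. Its total RNA values were 7.54, 7.37 and 7.46 in injured cord, against 7.90, 7.86 and 7.77 in sham cord. The total RNA groups did not overlap. The change was -0.18 ± 0.07 on polysomes (adjusted p = 0.075) and -0.39 ± 0.07 in total RNA (adjusted p = 6.0e-04). Probe set 1450923_at lay between 7.38 and 7.60 on all 12 arrays and changed by 0.07 ± 0.05 on polysomes (adjusted p = 0.30) and by -0.10 ± 0.05 in total RNA (adjusted p = 0.11). Probe set 1450922_a_at lay between 6.46 and 6.74 on polysomes and between 7.09 and 7.26 in total RNA, and changed by -0.10 ± 0.06 (adjusted p = 0.23) and 0.06 ± 0.06 (adjusted p = 0.40) in these fractions. As deposited, the 3 probe sets of Tgfb2 gave 1 call between them, and no interaction was called (0.21, 0.18 and -0.16 in that order, adjusted p = 0.10, 0.064 and 0.14). Other settings added calls. With the replicate block 1423250_a_at was called on polysomes (-0.18, adjusted p = 0.048). Under each of the 3 other scalings 1450923_at was called on polysomes (0.154 to 0.178, adjusted p = 0.031 to 0.049), and the interactions of 1423250_a_at (0.304 to 0.341, adjusted p = 0.019 to 0.036) and 1450923_at (0.228 to 0.269, adjusted p = 0.015 to 0.046) were called. After quantile normalization over 12 arrays or within fractions 1450922_a_at was called in total RNA (0.162 and 0.165, adjusted p = 0.044 and 0.042).

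Tgfb1, the ligand most often linked to scarring and made by microglia and macrophages among others, lay near the floor. It read 6.11, 6.17 and 6.16 in polysome-bound RNA of injured cord, against 6.39, 6.32 and 6.30 in that of sham cord, all not above the absent controls. Total RNA values were 7.13, 7.00 and 7.09 in injured cord, against 7.10, 6.98 and 7.01 in sham cord, and 3 of 3 injured and 1 of 3 sham arrays exceeded them. The polysome values differed by -0.19 ± 0.05 (adjusted p = 0.0076), but no fold is given where both groups are at the floor. That call was lost after centring (-0.11, adjusted p = 0.096). Its total RNA groups overlapped, with a change of 0.04 ± 0.05 (adjusted p = 0.46), which became a call after quantile normalization over 12 arrays (0.158, adjusted p = 0.020) or within fractions (0.165, adjusted p = 0.016). The interaction was -0.24 ± 0.07 (adjusted p = 0.013) and was not called after centring (-0.14, adjusted p = 0.11). Of 9 microglial marker probe sets, 0 were higher and 6 lower on polysomes of injured cord, and 1 was higher and 6 lower in total RNA. Over all probe sets tested, 11.8% were higher and 27.0% lower on polysomes, and 37.3% were higher and 22.4% lower in total RNA. The part of microglia in the Tgfb1 values was not tested.

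Bmp4, a BMP ligand that drives astrocyte fate in neural precursors, was not called by injury. It read 6.57, 6.62 and 6.76 in polysome-bound RNA of injured cord, against 6.70, 6.78 and 6.88 in that of sham cord. The total RNA arrays gave 7.75, 7.73 and 7.62 in injured cord, against 7.46, 7.64 and 7.67 in sham cord. Both pairs of groups overlapped. The change was -0.14 ± 0.07 on polysomes (adjusted p = 0.14) and 0.11 ± 0.07 in total RNA (adjusted p = 0.21), and the interaction was -0.24 ± 0.10 (adjusted p = 0.054). It was called in 4 of the 12 fits that left out 1 array, with values of -0.30 to -0.28 in those 4.

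**Figure D2:**
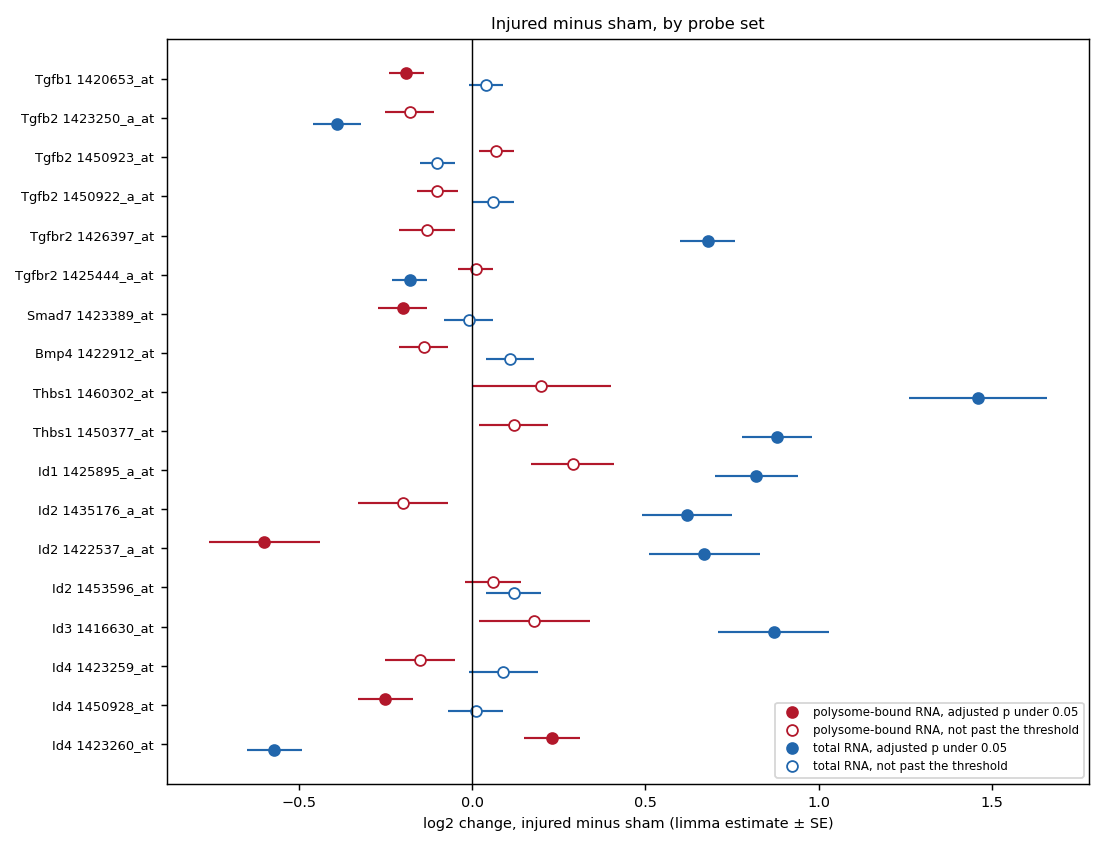
Log2 change of injured minus sham (x axis, limma estimate ± SE from 3 arrays a group) for the 18 member probe sets tested (y axis), on polysomes in red and in total RNA in blue, with filled points past an adjusted p of 0.05. Both Thbs1 probe sets, the brightest of Tgfbr2, Id1, 2 of Id2 and Id3 lie between 0.62 and 1.46 in total RNA, and Id4 1423260_at is the only probe set past the threshold below 0 in total RNA and above 0 on polysomes.

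Id1, Id3 and the bright probe sets of Id2 rose in total RNA. Id1 (1425895_a_at) read 7.69, 8.23 and 8.05 in polysome-bound RNA of injured cord, against 7.72, 7.71 and 7.68 in that of sham cord. In total RNA it read 8.91, 8.98 and 8.91 in injured cord, against 7.85, 8.23 and 8.27 in sham cord. Injured replicates 2 and 3 on polysomes exceeded all 3 sham arrays and replicate 1 did not. On polysomes the change was 0.29 ± 0.12 (adjusted p = 0.075), and without injured replicate 1, the array of lowest weight, it was 0.44 (adjusted p = 0.0044). It was also called with the replicate block (0.29, adjusted p = 0.038) and after centring, quantile normalization over 12 arrays or within fractions (0.37, 0.35 and 0.39, adjusted p = 0.014, 0.017 and 0.0080). Id1 was 1.76-fold higher in total RNA of injured cord (log2 change 0.82 ± 0.12, adjusted p = 8.6e-05). The interaction was -0.53 ± 0.17 (adjusted p = 0.019), or -0.39 relative to the median. It was not called without total sham replicate 1 (-0.40, adjusted p = 0.052) or after quantile normalization within fractions (-0.31, adjusted p = 0.11).

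Id3 (1416630_at) read 8.71, 9.56 and 9.21 in polysome-bound RNA of injured cord, against 9.00, 9.08 and 8.88 in that of sham cord. Its total RNA values were 10.13, 10.12 and 9.81 in injured cord, against 9.06, 9.17 and 9.22 in sham cord. On polysomes injured replicate 1 lay below all sham arrays and replicates 2 and 3 above them. The polysome change was 0.18 ± 0.16 (adjusted p = 0.41), and 0.40 without injured replicate 1 (adjusted p = 0.013). Id3 was 1.82-fold higher in total RNA of injured cord (log2 change 0.87 ± 0.16, adjusted p = 3.9e-04). The interaction was -0.69 ± 0.22 (adjusted p = 0.019), or -0.55 relative to the median, and -0.37 after quantile normalization within fractions (adjusted p = 0.10).

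Id2, which restrains oligodendrocyte maturation, had 2 bright probe sets. Probe set 1435176_a_at read 10.13, 10.69 and 10.75 in polysome-bound RNA of injured cord, against 10.78, 10.63 and 10.76 in that of sham cord. Total RNA values were 11.44, 11.62 and 11.57 in injured cord, against 10.97, 10.76 and 11.06 in sham cord. The total RNA groups did not overlap, whereas on polysomes only injured replicate 1 fell outside the sham values. The polysome change was -0.20 ± 0.13 (adjusted p = 0.25), and close to 0 without that array (adjusted p = 0.97). In total RNA of injured cord the probe set was 1.53-fold higher (log2 change 0.62 ± 0.13, adjusted p = 0.0013). The interaction was -0.82 ± 0.19 (adjusted p = 0.0028). Other settings brought the total RNA change down to 0.33 and the interaction to -0.47, both still called in 13 of 13.

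The second Id2 probe set, 1422537_a_at, was lower on polysomes of injured cord. It read 8.54, 9.48 and 9.12 there, against 9.66, 9.69 and 9.60 on polysomes of sham cord. The total RNA arrays gave 10.33, 10.51 and 10.46 in injured cord, against 9.70, 9.72 and 9.85 in sham cord. Neither pair of groups overlapped, and the 2 fractions moved in opposite directions. The polysome change was -0.60 ± 0.16 (1.52-fold lower, adjusted p = 0.0084), and -0.35 without injured replicate 1 (adjusted p = 0.0094). The total RNA change was 0.67 ± 0.16 (1.59-fold higher, adjusted p = 0.0027). The interaction was -1.27 ± 0.23 (adjusted p = 5.6e-04), or -1.14 relative to the median. Other settings brought the total RNA change down to 0.40, still called in 12 of 12. Of the bright Id2 probe sets, both rose in total RNA and 1 fell on polysomes past the threshold. The third probe set, 1453596_at, had no polysome array above the absent controls and a total RNA change of 0.12 ± 0.08 (adjusted p = 0.20), called after quantile normalization over 12 arrays (0.239, adjusted p = 0.023) or within fractions (0.255, adjusted p = 0.018).

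Id4, which is expressed in neural precursors and astrocytes, did not join the rise of Id1, Id2 and Id3. Probe set 1423259_at read 10.55, 10.98 and 10.96 in polysome-bound RNA of injured cord, against 10.98, 11.00 and 10.95 in that of sham cord. In total RNA it read 11.05, 11.10 and 11.24 in injured cord, against 10.99, 11.00 and 11.14 in sham cord. Both pairs of groups overlapped, with changes of -0.15 ± 0.10 on polysomes (adjusted p = 0.25) and 0.09 ± 0.10 in total RNA (adjusted p = 0.45). Quantile normalization over 12 arrays turned the total RNA change to -0.22 (adjusted p = 0.029).

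Probe set 1423260_at of Id4 behaved unlike the others. It read 11.21, 11.10 and 11.01 in polysome-bound RNA of injured cord, against 10.94, 10.86 and 10.84 in that of sham cord. Its total RNA values were 8.51, 8.63 and 8.82 in injured cord, against 9.15, 9.20 and 9.31 in sham cord. Neither pair of groups overlapped, and the changes had opposite signs. It was 1.17-fold higher on polysomes of injured cord (change 0.23 ± 0.08, adjusted p = 0.040), a call lost in 8 of the 12 fits that left out 1 array and with the replicate block (0.23, adjusted p = 0.059). In total RNA it was 1.48-fold lower (change -0.57 ± 0.08, adjusted p = 7.6e-05). The interaction was 0.80 ± 0.12 (adjusted p = 1.5e-04), or 0.94 relative to the median, and was called in all 12 of those fits.

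The remaining Id4 probe set, 1450928_at, read 10.45, 10.75 and 10.63 in polysome-bound RNA of injured cord, against 10.82, 10.83 and 10.91 in that of sham cord. Total RNA values were 10.50, 10.66 and 10.72 in injured cord, against 10.61, 10.51 and 10.72 in sham cord. The polysome change was -0.25 ± 0.08 (adjusted p = 0.034), not called without injured replicate 1 (-0.16, adjusted p = 0.11) or after centring (-0.17, adjusted p = 0.090). In all, it was called in 8 of the 12 fits that left out 1 array and in 7 of 12 other settings. The total RNA change was 0.01 ± 0.08 (adjusted p = 0.93), and -0.29 after quantile normalization over 12 arrays (adjusted p = 0.0044). The estimates of the 3 probe sets of Id4 therefore disagree in direction on polysomes, though no polysome call held in every fit. The annotation used here does not say which part of the transcript each one detects.

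**Figure D3:**
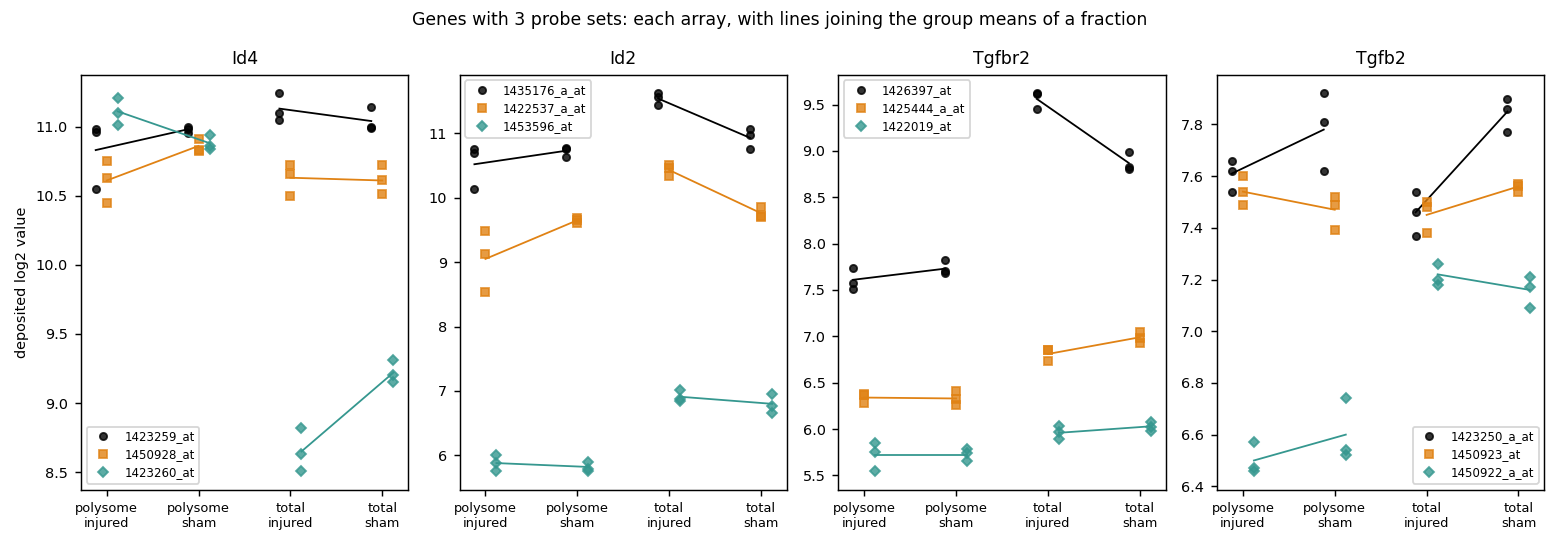
Deposited log2 value (y axis, its own scale in each panel) of each probe set on every array by group (x axis), for the 4 genes with 3 probe sets, with lines joining the injured and sham means within a fraction. Id4 1423260_at is the one probe set of Id4 that is far higher in polysome-bound RNA than in total RNA, and in Tgfbr2 only the brightest probe set rises with injury in total RNA.

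Astrocytes, oligodendrocyte precursors and endothelium are known to express Id genes, and markers of the first and second were read on the same arrays. Of 17 astrocyte probe sets, 3 were higher and 11 lower on polysomes of injured cord (median -0.31), and 7 were higher and 1 lower in total RNA (median 0.18). The mean level of the list was 8.84 to 8.96 in polysome-bound RNA of injured cord and 9.08 to 9.27 in that of sham cord, and 10.17 to 10.27 in total RNA of injured cord and 9.96 to 10.04 in that of sham cord. Gfap, the astrocyte intermediate filament gene, rose by 0.41 on polysomes (adjusted p = 1.6e-04) and by 0.76 in total RNA (adjusted p = 6.9e-07). Aqp4, an astrocyte water channel, changed by -1.21 on polysomes (adjusted p = 5.7e-08) and by -0.06 in total RNA (adjusted p = 0.43). Of 7 precursor probe sets, 1 was higher and 3 lower on polysomes, and 2 were higher and 3 lower in total RNA. The shares over all probe sets tested were 11.8% higher and 27.0% lower on polysomes, and 37.3% higher and 22.4% lower in total RNA. The part of these cells in the Id values was not tested.

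Polysome-bound RNA was next set against total RNA within each operation. Most members read lower on polysomes, as did most of the array: in injured cord 1 probe set was higher (5.6%, against 12.9% of all tested) and 14 were lower (77.8%, against 73.7%). In sham cord 2 were higher (11.1%, against 18.6%) and 10 were lower (55.6%, against 62.6%). The median difference of the members was -0.94 in injured cord, against -0.44 over all probe sets, and -0.49 in sham cord, against -0.35. These directions hang on the scaling: upward calls over the array made up 14.9% in injured cord as deposited, 53.3% after quantile normalization over 12 arrays and 65.9% after centring, and in sham cord 22.9%, 53.8% and 68.4%. The main differences are therefore also given relative to the array's median difference, and the share of an mRNA that is translated cannot be read from them.

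Id4 1423260_at was the member with the highest polysome values relative to total RNA. From the values above, it was 5.48-fold higher on polysomes in injured cord (difference 2.45 ± 0.08, adjusted p = 6.7e-12) and 3.15-fold higher in sham cord (1.66 ± 0.08, adjusted p = 3.5e-10). Relative to the median these differences were 2.89 and 2.01. The other Id4 probe sets were close to equal in both fractions, with 1423259_at at -0.30 in injured cord (adjusted p = 0.010) and -0.06 in sham cord (adjusted p = 0.57), and 1450928_at at -0.02 (adjusted p = 0.87) and 0.24 (adjusted p = 0.017). After centring, 1423259_at turned to 0.30 in injured cord (adjusted p = 0.0048) and 0.45 in sham cord (adjusted p = 2.1e-04), and 1450928_at to 0.59 in injured cord (adjusted p = 3.5e-06).

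The brightest Tgfbr2 probe set, both of Thbs1, and those of Smad7 and Bmp4 were lower on polysomes than in total RNA under each of the 4 scalings. Tgfbr2 1426397_at was 3.87-fold lower on polysomes in injured cord (difference -1.95 ± 0.08, adjusted p = 2.4e-11) and 2.21-fold lower in sham cord (-1.14 ± 0.08, adjusted p = 5.6e-09), or -1.51 and -0.79 relative to the median. Thbs1 1460302_at differed by -2.42 ± 0.20 in injured cord (adjusted p = 3.5e-08), or -1.98 relative to the median, and was at least 1.59-fold lower on polysomes in sham cord as deposited (adjusted p = 8.6e-05), where the measured difference of -1.16 came to -0.58 under another scaling. Smad7 differed by -1.03 in injured cord and -0.84 in sham cord (-0.59 and -0.49 relative to the median). Bmp4 differed by -1.05 in injured cord and -0.81 in sham cord (-0.61 and -0.45 relative to the median). As deposited, Tgfb1 was at least 1.55-fold lower on polysomes in injured cord and at least 1.48-fold lower in sham cord. These bounds hold for that scaling only: the measured difference of -0.93 in injured cord shrank to -0.33 under another scaling, and that of -0.69 in sham cord was -0.09 after quantile normalization over 12 arrays, with the call lost (adjusted p = 0.13). The polysome arrays of Tgfb1 and of the dimmer Thbs1 probe set were not above the absent controls. In sham cord the total RNA arrays of that Thbs1 probe set were not above them either. Its lower reading there compares values at the floor in both fractions.

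The Id1, Id2 and Id3 probe sets were lower on polysomes in injured cord as deposited. Id1 differed by -0.94 ± 0.12 in injured cord (adjusted p = 3.6e-06) and by -0.42 ± 0.12 in sham cord (adjusted p = 0.0054). Id3 differed by -0.85 ± 0.16 in injured cord (adjusted p = 1.3e-04) and by -0.16 ± 0.16 in sham cord (adjusted p = 0.35). For Id2, 1422537_a_at differed by -1.38 ± 0.16 in injured cord (adjusted p = 1.2e-06) and by -0.11 ± 0.16 in sham cord (adjusted p = 0.54), and 1435176_a_at by -1.02 ± 0.13 (adjusted p = 3.8e-06) and -0.20 ± 0.13 (adjusted p = 0.16). In a fit of the sham arrays alone that paired equal numbers, Id3 (-0.16, adjusted p = 0.018) and 1435176_a_at (-0.20, adjusted p = 0.0016) were called lower. The labels do not establish that pairing. After centring, the injured-cord difference of Id3 was -0.25 and no longer called (adjusted p = 0.11), and those of the others shrank to -0.34 for Id1, -0.78 for 1422537_a_at and -0.42 for 1435176_a_at. The sham difference of Id1 lost its call after quantile normalization over 12 arrays (-0.02, adjusted p = 0.89). After centring, the sham differences turned to 0.09 for Id1 (adjusted p = 0.44), 0.35 for Id3 (adjusted p = 0.034), 0.40 for 1422537_a_at (adjusted p = 0.018) and 0.31 for 1435176_a_at (adjusted p = 0.029). The test that the 2 operations differ is the interaction given above.

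Tgfb2 was split by probe set. As deposited, both 1423250_a_at (0.15 in injured cord, adjusted p = 0.072, and -0.06 in sham cord, adjusted p = 0.45) and 1450923_at (0.09, adjusted p = 0.13, and -0.09, adjusted p = 0.14) gave no call. After centring both were called higher, at 0.75 and 0.69 in injured cord (adjusted p = 1.6e-07 and 3.4e-08) and at 0.45 and 0.42 in sham cord. Quantile normalization over 12 arrays also called them higher in injured cord (0.715 and 0.659, adjusted p = 2.7e-07 and 6.2e-08). Probe set 1450922_a_at was 1.64-fold lower on polysomes in injured cord (difference -0.72 ± 0.06, adjusted p = 5.0e-08) and 1.47-fold lower in sham cord (-0.56 ± 0.06, adjusted p = 9.1e-07). After centring it stood at -0.11 (adjusted p = 0.14) and -0.05 (adjusted p = 0.56).

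**Figure D4:**
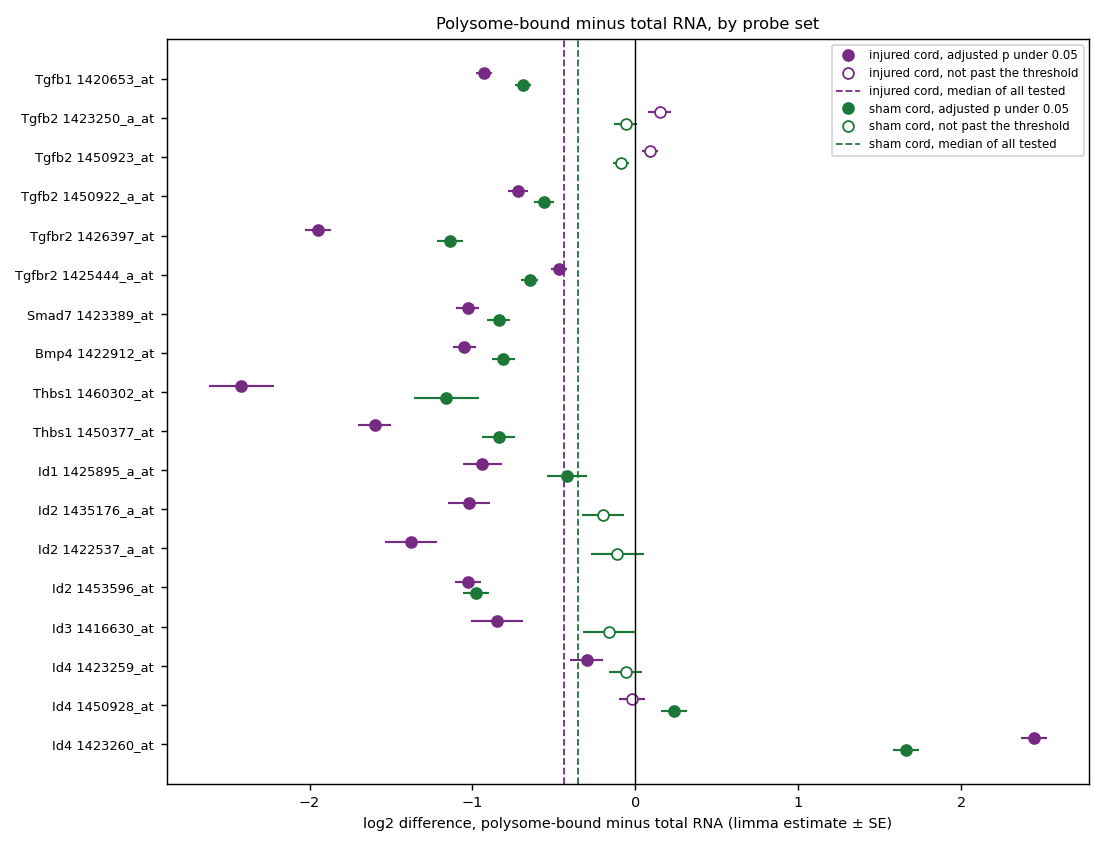
Log2 difference of polysome-bound minus total RNA (x axis, limma estimate ± SE from 3 arrays a group) for the 18 member probe sets tested (y axis), in injured cord in purple and sham cord in green, with filled points past an adjusted p of 0.05 and dashed lines at the median of all probe sets tested, -0.44 in injured cord and -0.35 in sham cord. Id4 1423260_at stands at 2.45 and 1.66, and Thbs1 1460302_at at -2.42 and -1.16. No sham polysome array of that Thbs1 probe set exceeded the absent controls.

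The wider pathway was covered by 10 lists of 93 genes, of which 69 genes with 115 probe sets were tested. On polysomes 17 probe sets were higher in injured cord (14.8%, against 11.8% of all tested) and 35 were lower (30.4%, against 27.0%), with a median change of -0.06, against -0.05 over the array. In total RNA 51 were higher (44.3%, against 37.3%) and 19 were lower (16.5%, against 22.4%), with a median of 0.12, against 0.08. The interaction was called above 0 for 9 (7.8%, against 13.6%) and below 0 for 43 (37.4%, against 37.0%). The counts of single lists below are to be read beside these same shares over all probe sets tested. Target genes of TGF-beta had the highest medians of the 10 lists as deposited, with 7 of 16 probe sets higher and 3 lower on polysomes (median 0.17) and 10 higher and 2 lower in total RNA (median 0.52). These 16 probe sets came from 9 genes, so the counts are not of separate genes. The higher calls on polysomes came from Tgfbi, Ccn1, Ccn2 and Snai1 only, with several probe sets for Tgfbi and Ccn1. In total RNA they came from the same genes and Fn1. Ccn1, a matrix protein gene induced at wounds, rose by 1.44 ± 0.10 on polysomes (adjusted p = 2.3e-07) and by 1.81 ± 0.10 in total RNA (adjusted p = 2.8e-08). Ccn2, connective tissue growth factor, rose by 0.79 ± 0.22 on polysomes (adjusted p = 0.012) and by 1.83 ± 0.22 in total RNA (adjusted p = 1.9e-05). Col1a1, a fibrillar collagen gene, changed by -0.83 ± 0.08 on polysomes (adjusted p = 4.4e-06) and by -0.44 ± 0.08 in total RNA (adjusted p = 3.0e-04).

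Upstream of the targets, Smads and receptors were mixed. Over 8 Smad probe sets, 2 were higher and 1 lower on polysomes, and 3 were higher and 1 lower in total RNA. Smad1, a BMP Smad, had 1 probe set that rose by 0.41 on polysomes (adjusted p = 4.8e-04) and by 0.80 in total RNA (adjusted p = 1.4e-06), and another at 0.15 and 0.11 with no call. The shared Smad4 was split: 1 probe set rose by 0.59 on polysomes (adjusted p = 2.7e-05) and by 0.45 in total RNA (adjusted p = 1.2e-04), while the others stood at -0.14 and -0.11 on polysomes, uncalled, and at -0.16, uncalled, and 0.28, called, in total RNA. Smad5, another BMP Smad, changed by -0.53 in total RNA (adjusted p = 3.0e-06), from a mean of 7.09 in sham cord to 6.56 in injured cord. In injured cord 0 of 3 total RNA arrays exceeded the absent controls, so the lower value lies at the floor. Of 19 receptor and co-receptor probe sets, 1 was higher and 7 lower on polysomes, and 9 were higher and 4 lower in total RNA. Acvr1, a BMP and activin type I receptor, had 3 probe sets that disagreed. The brightest changed by -0.02 on polysomes (adjusted p = 0.82) and by 0.67 in total RNA (adjusted p = 2.6e-06), with an interaction of -0.69 (adjusted p = 7.7e-05). Another was called at -0.23 on polysomes and at 0.26 in total RNA, and the third stood at 0.06 on polysomes, uncalled, and was called at -0.14 in total RNA.

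Other ligands were called in both directions. Of 10 probe sets for other TGF-beta and activin ligands and latency proteins, 0 were higher and 3 lower on polysomes, and 4 were higher and 3 lower in total RNA. Of 5 for other BMP and GDF ligands, 0 were higher and 1 lower on polysomes, and 3 were higher and 1 lower in total RNA. Bmp6, a BMP ligand, changed by -0.51 on polysomes (adjusted p = 5.6e-04). Thrombospondins and their receptors had 3 of 7 probe sets higher and 2 lower on polysomes, and 5 higher and 0 lower in total RNA. Thbs2 rose by 0.29 on polysomes (adjusted p = 0.0024) and by 0.58 in total RNA (adjusted p = 7.7e-06). Among 7 probe sets for activators of latent TGF-beta, 0 were higher and 3 lower on polysomes, and 3 were higher and 1 lower in total RNA. Itgav, an integrin subunit that frees TGF-beta, changed by 0.05 on polysomes (adjusted p = 0.67) and by 0.78 in total RNA (adjusted p = 6.3e-06) by 1 probe set, and by 0.08 and -0.05 with no call by the other.

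Inhibitors of the pathway other than Smad7 were called in both directions. Of 11 probe sets for other intracellular and membrane inhibitors, 3 were higher and 4 lower on polysomes, and 6 were higher and 1 lower in total RNA. Bambi, a pseudoreceptor, rose by 0.36 on polysomes (adjusted p = 0.0021) and by 0.61 in total RNA (adjusted p = 2.6e-05). Of 13 probe sets for extracellular antagonists, 0 were higher and 3 lower on polysomes, and 5 were higher and 4 lower in total RNA. For Twsg1, which binds BMPs, the brightest probe set changed by -0.53 on polysomes (adjusted p = 3.4e-04) and by 0.36 in total RNA (adjusted p = 0.0034). Its other probe sets went the other way in total RNA, with calls at -0.28 and -0.20, and had no call on polysomes (-0.06 and -0.07). The bHLH factors that Id proteins bind or oppose had 1 of 19 probe sets higher and 8 lower on polysomes, and 3 higher and 2 lower in total RNA. Olig2, a bHLH factor of the oligodendrocyte lineage, changed by -0.57 on polysomes (adjusted p = 7.9e-05) and by -0.10 in total RNA (adjusted p = 0.28). Olig1, another, fell in both fractions, by -0.64 on polysomes (adjusted p = 2.8e-04) and by -0.54 in total RNA (adjusted p = 5.3e-04). Its interaction was -0.09 (adjusted p = 0.62). Tcf12, an E protein that Id proteins sequester, changed by -0.38 on polysomes (adjusted p = 6.8e-04) and by 0.36 in total RNA (adjusted p = 6.1e-04) by 1 probe set. The other Tcf12 probe set was called at -0.21 on polysomes and stood at -0.01 in total RNA with no call.

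**Figure D5:**
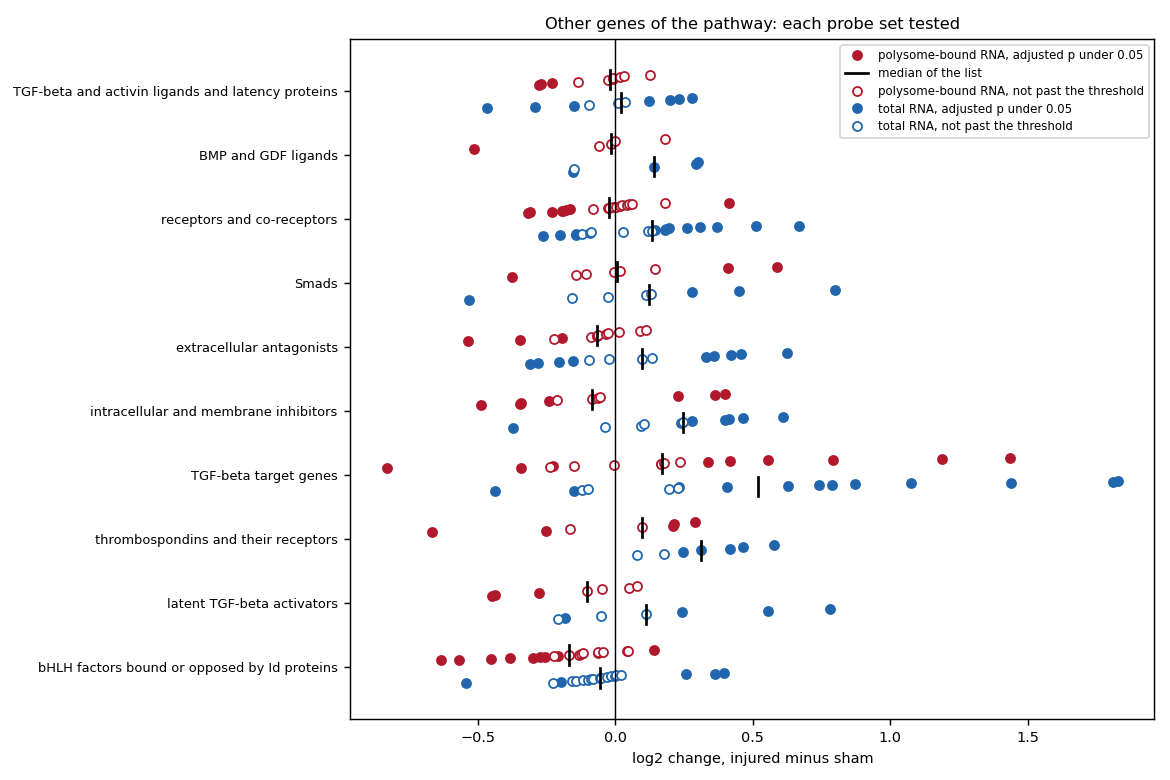
Log2 change of injured minus sham (x axis) for each tested probe set of the 10 pathway lists (y axis), on polysomes in red and in total RNA in blue, filled past an adjusted p of 0.05, with a black bar at each list's median. Points of a list are spread vertically only to keep them apart. The target genes reach a median of 0.17 on polysomes and 0.52 in total RNA.

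The genes whose values ran most like those of each member were ranked by Pearson's r over the 12 arrays, which share the difference between fractions and so give high values throughout. For Tgfbr2 these were Rock1 and Wwtr1 (both r = 0.997), and they stayed first after centring (both 0.994). For Thbs1 they were Slc43a3 (0.989) and Lox (0.988), and after centring Pxn (0.989) and Lox (0.980). Gcnt2 ranked first for Id1 both as deposited (0.983) and after centring (0.974). Stk25 (0.979) and Uap1 (0.977) ranked first for Id3, B4galnt1 (0.980) for the brightest Id2 probe set and Polr2d (0.958) for that of Id4. Uggt2 ranked first for Tgfb1 (0.997), Cbx8 for Tgfb2 (0.908), Dab1 for Smad7 (0.998) and Rbm26 for Bmp4 (0.994). After centring, Nbl1, a BMP antagonist gene, ranked first for Bmp4 (0.960). These are descriptions of 12 arrays in 4 groups, with no test.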

How the data were processed

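RNA was measured on 12 Affymetrix arrays in 4 groups of 3, which the sample labels define. The authors deposited log2 values, 1 per probe set and array, from 5.26 to 14.65; the scale was read from that range, and the background correction, normalization and summary method are not given in the sources used here. The values were used as deposited. Symbols came from the array annotation, which names 1 gene for 20393 of 22690 probe sets, several for 691 and none for 1606. Probe sets above the 25th percentile of their array on at least 3 arrays were kept, leaving 16566 probe sets of 10371 genes.

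Differences were fitted with limma 3.58.1 (R 4.3.3, statmod 1.5.0): a mean per group, 8 residual degrees of freedom (14.1 after moderation with an intensity trend), two-sided p-values adjusted by Benjamini-Hochberg over all 16566 probe sets, threshold 0.05. The procedure was tested on simulated data. The members, lists, markers and tests were chosen with earlier results of these data known. Every member probe set is named, with up to 3 genes of each pathway list of lowest adjusted p, marker examples by the same rule, and the genes of highest correlation. List genes and markers were ranked by their brightest probe set. Fold bounds replace folds where a group was not above the 27 absent controls on any array. The number of arrays limits the precision.

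Equal replicate numbers occur in all groups. Deviations of equal-numbered polysome and total RNA arrays correlated at 0.192, 0.174 and 0.144 in sham cord, and at -0.090, 0.062 and 0.038 in injured cord. Between sham and injured arrays, which come from different animals, the correlations ran from -0.305 to 0.450, with both extremes between polysome arrays. Between a total RNA array and a polysome array of different operations they ran from -0.158 to 0.154. The equal-numbered sham values of 0.192 and 0.174 lay above that range, and those of injured cord lay inside it. These values do not establish whether equal numbers mark 1 animal. The paired fit of the sham arrays was added after seeing the data. Alternatives were the filter, 1 value a gene, quantile normalization over 12 arrays or within fractions, centring, moderation, array weights, only the groups compared, a replicate block and leaving out each array. A comparison of Id protein sequences was not run.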

Additional observations from a re-analysis of the deposited data

Results flagged for a closer look

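For 9 member probe sets the injury change differed between polysome-bound and total RNA by the interaction test. The polysome change was below that in total RNA for Tgfb1 (-0.24), Tgfbr2 1426397_at (-0.81), Thbs1 1460302_at (-1.26) and 1450377_at (-0.76), Id1 (-0.53), Id2 1435176_a_at (-0.82) and 1422537_a_at (-1.27), and Id3 (-0.69), and above it for Id4 1423260_at (0.80). The median interaction of all probe sets was -0.14, and 50.6% of them were called.

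A single probe set outside the member definition carries the symbols of both Thbs1 and Pald1 (1421811_at). It averaged 7.03 ± 0.71 in polysome-bound RNA of injured cord and 6.32 ± 0.10 in that of sham cord, and 9.86 ± 0.51 in total RNA of injured cord and 7.78 ± 0.46 in that of sham cord (SD, n = 3 each). The injured minus sham difference was 0.71 on polysomes and 2.08 in total RNA. These values cannot be assigned to either gene, and no test was run on them.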

How the results depend on the processing

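On polysomes 27.8% of the 18 member probe sets were called (38.8% of all probe sets), 16.7% with array weights (35.6% of all) and 11.1% with the spread taken from the compared groups alone (28.5% of all). In total RNA 55.6% were called (59.8% of all), and 83.3% after quantile normalization over 12 arrays (43.4% of all) or within fractions (40.8% of all). Leaving out 1 array gave 11.1% to 27.8% on polysomes (11.1% without polysome sham replicate 1 and 16.7% without polysome sham replicate 3), 50% to 61.1% in total RNA, 44.4% to 66.7% for the interaction, 83.3% to 88.9% for polysome-bound against total RNA in injured cord and 61.1% to 72.2% in sham cord; over all probe sets these ranges were 30.3% to 40.9%, 50.1% to 65.4%, 43.4% to 55.1%, 84.1% to 86.4% and 77.8% to 84.2%. Of 1118 member values under the 14 alternatives that keep all arrays, 1025 kept their direction and side of the threshold, 30 lost a call, 43 gained one and 20 reversed; of 1080 values with 1 array left out, 1043 kept both, 19 lost a call, 18 gained one and 0 reversed. A further 26 of the 2198 values changed sign with no call in either fit and are counted among those that kept both.

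The reversals all came from scaling. In total RNA, Id4 1423259_at turned to -0.215 (quantile normalization over 12 arrays) and -0.201 (within fractions), and Id4 1450928_at to -0.289 and -0.277. For polysome-bound against total RNA in injured cord, quantile normalization over 12 arrays gave 0.021 for Tgfbr2 1425444_a_at and 0.215 for Id4 1450928_at, quantile normalization within fractions gave 0.164 for Id4 1450928_at, and centring gave 0.302 for Id4 1423259_at, 0.133 for Tgfbr2 1425444_a_at and 0.587 for Id4 1450928_at. In sham cord, quantile normalization over 12 arrays gave 0.375, 0.050 and 0.431 for Tgfb2 1423250_a_at, 1450922_a_at and 1450923_at, and centring gave 0.349 for Id3, 0.402 and 0.306 for Id2 1422537_a_at and 1435176_a_at, 0.448 and 0.421 for Tgfb2 1423250_a_at and 1450923_at, 0.449 for Id4 1423259_at and 0.094 for Id1. The cause was not tested.

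With the replicate number as a fixed replicate block, 33.3% of members were called on polysomes (37.2% of all) and 55.6% for the interaction (48.8% of all). The block added Tgfb2 1423250_a_at (-0.18, adjusted p = 0.048) and Id1 (0.29, adjusted p = 0.038) on polysomes and the interaction of Bmp4 (-0.24, adjusted p = 0.047), and removed Id4 1423260_at on polysomes (0.23, adjusted p = 0.059). In injured cord it added Tgfb2 1423250_a_at (0.15, adjusted p = 0.045). The paired fit of the sham arrays alone called 77.8% of members (87.5% of all), against 66.7% (81.2% of all) without pairing. A random replicate block gave correlations of -0.056 and -0.014 and changed no member call. Signal near the absent controls limits what can be said of Tgfb1, Thbs1 on polysomes, Tgfbr2 1425444_a_at and Id2 1453596_at.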
